A study of Zea mays with 6 samples.

Results

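Phenylalanine ammonia-lyase is represented here by 4 maize transcript models, GRMZM2G029048_T01, GRMZM2G334660_T01, GRMZM2G063917_T01 and GRMZM2G118345_T01, out of 42007 models that drew a read in any library. The 4 models are a named list, chosen by their read counts and RPKM in pollinated and unpollinated embryo sacs, which rise after pollination. Their change between pollinated and unpollinated embryo sacs is therefore a description, given with no test. The same holds for their other comparisons, since each of those uses libraries that entered the choice. Tests are given for other models.

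Phenylalanine ammonia-lyase removes ammonia from L-phenylalanine and leaves trans-cinnamate, which is the step that carries carbon from amino acid metabolism into phenylpropanoids. Lignin, flavonoids, anthocyanins and hydroxycinnamic acids are all made downstream of it. Plants hold the enzyme as a family of similar genes, and grass enzymes can also use L-tyrosine. Its transcripts are known to respond to wounding, infection and light in leaves and stems.

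Poly(A) RNA was sequenced from the inbred line Q319 in 3 tissues with 2 libraries each, which the labels call biological replicates. The groups were nucellus, unpollinated embryo sacs, and embryo sacs collected 14 to 16 h after pollination. An embryo sac, the few-celled female gametophyte, holds the egg cell and the central cell, and the nucellus is the maternal tissue around it. Embryo sacs and nucellus were separated from enzyme-treated ovule slices. The labels name no genotype other than Q319 and no treatment of the plants other than pollination. The labels do not say how many plants or embryo sacs went into a library, whether pollen tubes had entered each sac, or which pollen was used.

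Each library held 2.5e+06 to 3.3e+06 unique reads. As a check of the tissue labels, 11 of 11 models described as embryo sac proteins (EBE, ES, EGG APPARATUS and di-SUMO-like) were higher in embryo sac than in nucellus. Over all tested models 23.2% were. Of the 11 models, 3 and 2 drew a read in the nucellus libraries, so those without one entered the test through embryo sac libraries. Their summed RPKM (the deposited read count scaled to model length and library size) was 21.6 and 16.7 in nucellus, 2706 and 2573 in embryo sac, and 2396 and 2306 after pollination. In bulk samples of this kind, more cells of a type and more RNA per cell cannot be told apart.

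The annotation of the 4 models was checked first. All 4 of 4 carry the GO process text L-phenylalanine metabolic process. The ammonia-lyase function is spelled out for 3 of 4, and GRMZM2G029048_T01 has only the code of the parent term for carbon-nitrogen lyases. Only GRMZM2G118345_T01 is described by its best protein match as phenylalanine ammonia-lyase. The match of GRMZM2G334660_T01 is LOC100381820, a name that the RefSeq gene table pairs with another gene, GRMZM2G170692. GRMZM2G029048_T01 matched a hypothetical sorghum protein and GRMZM2G063917_T01 an unnamed maize protein.

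GRMZM2G029048_T01 was the main transcript of the enzyme in every tissue. It drew 663 and 703 reads in nucellus, 1666 and 1624 in embryo sac, and 4808 and 5559 after pollination. Its RPKM was 84.4 ± 0.23 (SD, n = 2) in nucellus, 201 ± 7.12 in embryo sac and 760 ± 49.2 in pollinated embryo sac. The 3 tissues did not overlap. On counts scaled by the trimmed mean of M-values (TMM) the pollinated level was 4.26-fold the unpollinated one. This is a log2 change of 2.09 ± 0.11 (SE, derived from the edgeR test statistic). By RPKM the model ranked 400 and 347 among all models in embryo sac and 101 and 93 after pollination.

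GRMZM2G334660_T01 went from the detection floor to one of the more abundant transcripts. It drew 3 and 2 reads in nucellus, 2 in each embryo sac library, and 1329 and 1344 after pollination. Its RPKM was 0.30 ± 0.098 in nucellus, 0.236 ± 0.0126 in embryo sac and 190 ± 5.66 after pollination, where it ranked 543 and 577. The fitted log2 change was 9.75 ± 0.24, or 858-fold, and its lower side rests on 4 reads in all. The SE comes from the test statistic and does not give the counting error of those 4 reads, so the fold is imprecise.

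GRMZM2G063917_T01 showed a graded order of the tissues. It drew 4 and 2 reads in nucellus, 29 and 42 in embryo sac, and 1361 and 1582 after pollination. Its RPKM was 0.327 ± 0.167, 3.82 ± 1.18 and 189 ± 12.9 in that order. The fitted change on pollination was 5.80 ± 0.16 on the log2 scale, or 55.9-fold. No library of a tissue overlapped one of another tissue.

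GRMZM2G118345_T01, the model with the enzyme's name, was the lowest of the 4 after pollination. It drew 12 and 11 reads in nucellus, 10 and 20 in embryo sac, and 187 and 212 after pollination. Its RPKM was 1.27 ± 0.13 in nucellus, 1.65 ± 0.856 in embryo sac and 26.0 ± 1.33 after pollination. The fitted change on pollination was 4.16 ± 0.25 on the log2 scale, or 17.9-fold. It was 3.70 without embryo sac replicate 1 and 4.80 without embryo sac replicate 2. The RPKM of embryo sac and nucellus overlapped, and both pollinated libraries stood above them.

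**Figure D1:**
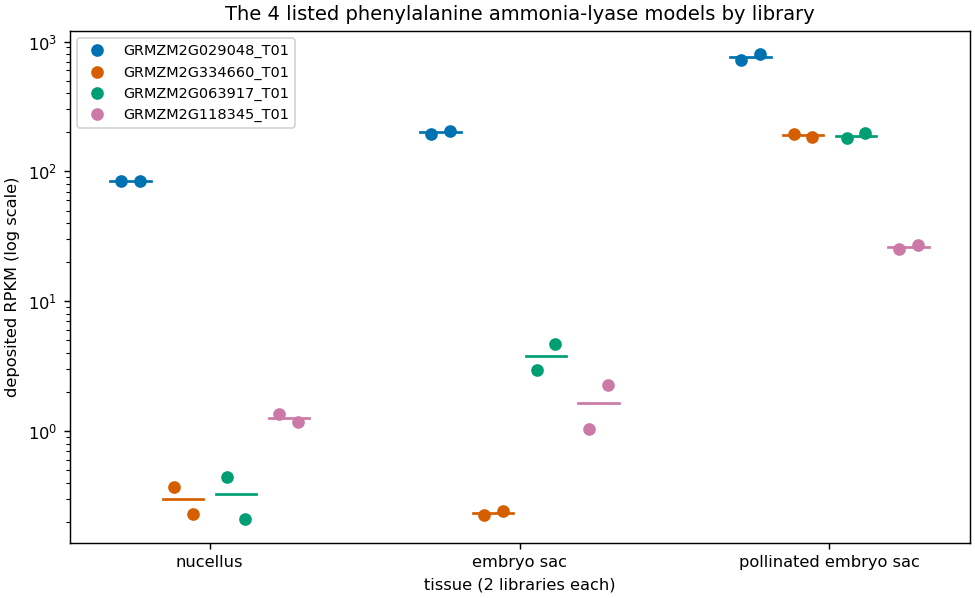
Deposited RPKM on a log scale of the 4 listed models in nucellus, embryo sac and pollinated embryo sac, with 1 point per library and a line at the mean of 2 libraries. All 4 models are highest in the pollinated libraries, and GRMZM2G029048_T01 is highest in each tissue, from 84.4 in nucellus to 760 after pollination.

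The order of the levels per length changed between tissues. In embryo sac it ran GRMZM2G029048_T01, GRMZM2G063917_T01, GRMZM2G118345_T01 and GRMZM2G334660_T01, with no overlap between neighbours. In nucellus GRMZM2G118345_T01 came next after GRMZM2G029048_T01, and GRMZM2G063917_T01 and GRMZM2G334660_T01 overlapped at the bottom. In pollinated embryo sac GRMZM2G334660_T01 and GRMZM2G063917_T01 overlapped behind GRMZM2G029048_T01, and GRMZM2G118345_T01 came last.

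Summed over the 4 models, RPKM was 86.7 and 85.8 in nucellus, 200 and 213 in embryo sac, and 1123 and 1205 after pollination. As a share of all reads, the 4 models stood at 0.0524% and 0.0559% before pollination and 0.302% and 0.324% after it. The log2 ratio of the mean summed TMM-scaled CPM (counts scaled to library size) was 2.71, and 2.49 on the deposited RPKM, which carry no TMM factor. Most of the summed level before pollination was GRMZM2G029048_T01. The other 3 models together drew 41 and 64 reads in embryo sac and 2877 and 3138 after pollination.

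The members were then set beside the remaining ammonia-lyase models. The best protein match reads phenylalanine ammonia-lyase for only 3 models of 2 genes, GRMZM2G118345_T01, GRMZM2G160541_T02 and GRMZM2G160541_T03. A wider family of 20 models from 15 genes was therefore taken from the GO text, a choice made after the tables were read. In it, 18 models carry the L-phenylalanine process, and GRMZM2G326335_T01 and GRMZM2G447436_T01 carry only an aromatic compound process. Models of 9 other ammonia-lyases or carbon-nitrogen lyases, such as those of isoleucine metabolism, were left out. The RefSeq table matched 10 of the 15 genes, and it gives the synonyms PAL1 and pal3 to GRMZM2G074604.

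Of the 16 models outside the listed 4, 8 drew enough reads to be tested. The count filter asks for 3.32 CPM in at least 2 libraries, and 5 of the 8 reached that only with the pollinated libraries. For such models the filter favours a rise, so their change on pollination is given without a p.

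A pair of the 8 reached similar levels after pollination. GRMZM2G170692_T01 drew 14 and 9 reads in nucellus, 6 in each embryo sac library, and 946 and 1153 after pollination. Its RPKM was 0.742 ± 0.0397 in embryo sac and 156 ± 15.9 after pollination (log2 change 7.86 ± 0.21). Both pollinated libraries stood far above the other 4, and it is one of the 5 that passed the filter through them. GRMZM2G081582_T01 drew 38 and 57 reads in nucellus, 29 and 30 in embryo sac, and 785 and 865 after pollination. Its RPKM rose from 3.51 ± 0.27 to 118 ± 3.63 (log2 change 5.24 ± 0.17, edgeR adjusted p = 1.12e-68).

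A further 5 models of the family were low before pollination, and all but GRMZM2G074604_T01 passed the filter only through the pollinated libraries. GRMZM2G023794_T02, a transcribed pseudogene in RefSeq, had no read in embryo sac or nucellus and 46 and 62 reads in pollinated embryo sac. It was at least 24.4-fold higher than in embryo sac, taking 3 reads per library as the floor. GRMZM2G153871_T01 drew 3 and 5 reads in embryo sac and 34 and 33 after pollination (log2 change 3.47 ± 0.49). GRMZM2G061851_T01 drew 7 and 4 reads before and 29 and 19 after (log2 change 2.54 ± 0.49). In all 3 models both pollinated libraries stood above the other 4, which the filter in part fixes, so this is no support for a change.

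For the remaining pair of these 5 the call ended when 1 library was left out. GRMZM2G160541_T02, also a transcribed pseudogene in RefSeq, drew 7 and 6 reads in embryo sac and 24 and 14 after pollination (log2 change 1.97 ± 0.51). Without pollinated replicate 1 its log2 change was 1.51 and it was not called. GRMZM2G074604_T01, a model of the gene with the synonym PAL1, drew 41 and 20 reads in embryo sac and 53 and 54 after pollination (log2 change 1.25 ± 0.28, edgeR adjusted p = 7.39e-05). Without embryo sac replicate 2 its log2 change was 0.88, below the threshold of 1.

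GRMZM2G139624_T01 was the tested family model that did not pass. It drew 22 and 9 reads in nucellus, 11 and 7 in embryo sac, and 7 and 2 after pollination (log2 change -0.55 ± 0.66, edgeR adjusted p = 0.498). The remaining 8 of the 20 models drew too few reads to be tested. Among them GRMZM2G447436_T01 drew 1 and 0 reads in embryo sac and 7 and 6 after pollination, 17.7 times as many after scaling (95% counting interval 2.66 to 751). The others, GRMZM2G029048_T02, GRMZM2G074604_T02, GRMZM2G074604_T03, GRMZM2G081582_T02, GRMZM2G160541_T03, GRMZM2G326335_T01 and GRMZM2G441347_T01, had 1 to 54 reads over all 6 libraries. GRMZM2G029048_T02, the second model of the main gene, drew 9 and 16 reads in embryo sac and 8 and 5 after pollination.

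Across the series, 32.3% of the 18844 tested models were called between pollinated and unpollinated embryo sac, 13.0% higher and 19.3% lower. A call needed an adjusted p under 0.05 and a log2 change of at least 1 in either direction. Of the 8 tested family models outside the listed 4, 7 were called higher. None was called lower by edgeR or DESeq2, and 0 were lower at an unadjusted p under 0.05. With the listed models it was 11 of 12, a share that the choice of the 4 in part fixes. Since 5 of the 8 passed the filter through the pollinated libraries, these counts describe the family and are no support for a family-wide change. The median log2 change was 3.81 with the listed models and 3.00 without them, against -0.08 over all tested models, and both rest on the same filter.

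**Figure D2:**
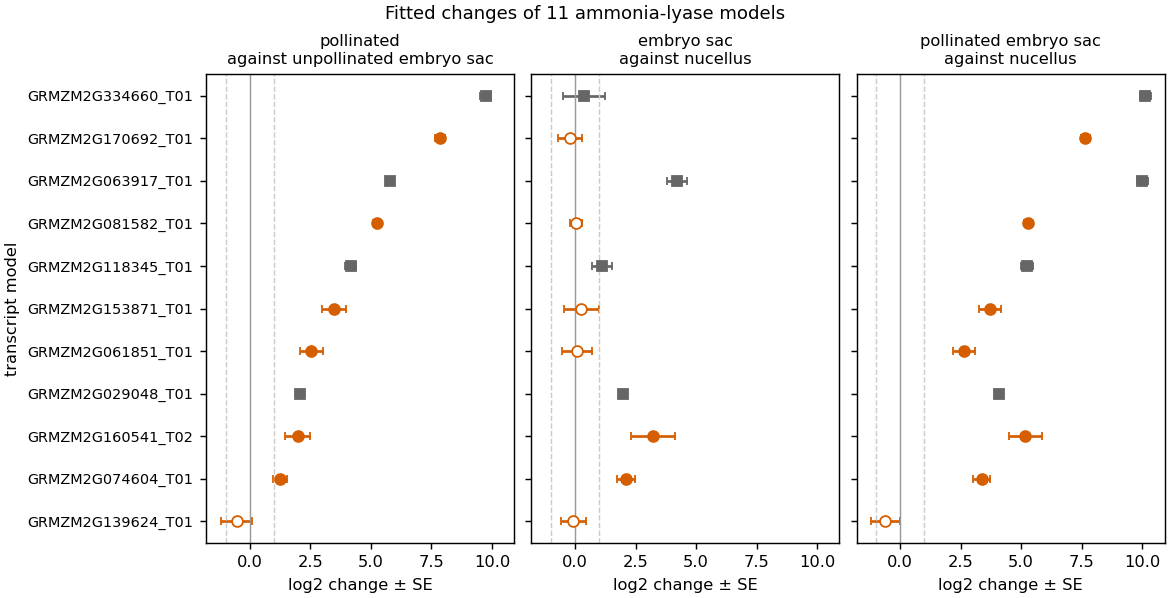
Fitted log2 change ± SE on a shared axis for 11 tested ammonia-lyase models in the 3 comparisons; GRMZM2G023794_T02, with no read in 2 tissues, is not drawn. Grey squares are the listed models, given with no call, and orange points other models, filled where called and open where not. GRMZM2G170692_T01, GRMZM2G153871_T01, GRMZM2G061851_T01 and GRMZM2G160541_T02 passed the count filter only through the pollinated libraries. Their filled points in comparisons with pollinated embryo sac are therefore no support for a rise. The SE does not give the counting error where reads are few. After pollination the changes run from -0.55 for GRMZM2G139624_T01 to 9.75 for GRMZM2G334660_T01.

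The make-up of the family's summed level shifted with pollination. Summed over 20 models, RPKM was 110 and 104 in nucellus, 219 and 230 in embryo sac, and 1430 and 1532 after pollination. GRMZM2G029048_T01 held 77.0% and 81.4% of that sum in nucellus, 89.6% and 89.5% in embryo sac, and 50.7% and 51.9% after pollination. GRMZM2G334660_T01 went from 0.104% and 0.106% in embryo sac to 13.5% and 12.1% after pollination, and GRMZM2G063917_T01 from 1.36% and 2.02% to 12.5% and 12.9%. Outside the listed 4, GRMZM2G170692_T01 held 10.1% and 10.9% after pollination and GRMZM2G081582_T01 8.06% and 7.86%. The shares are of level per length, so they do not depend on scaling between libraries.

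**Figure D3:**
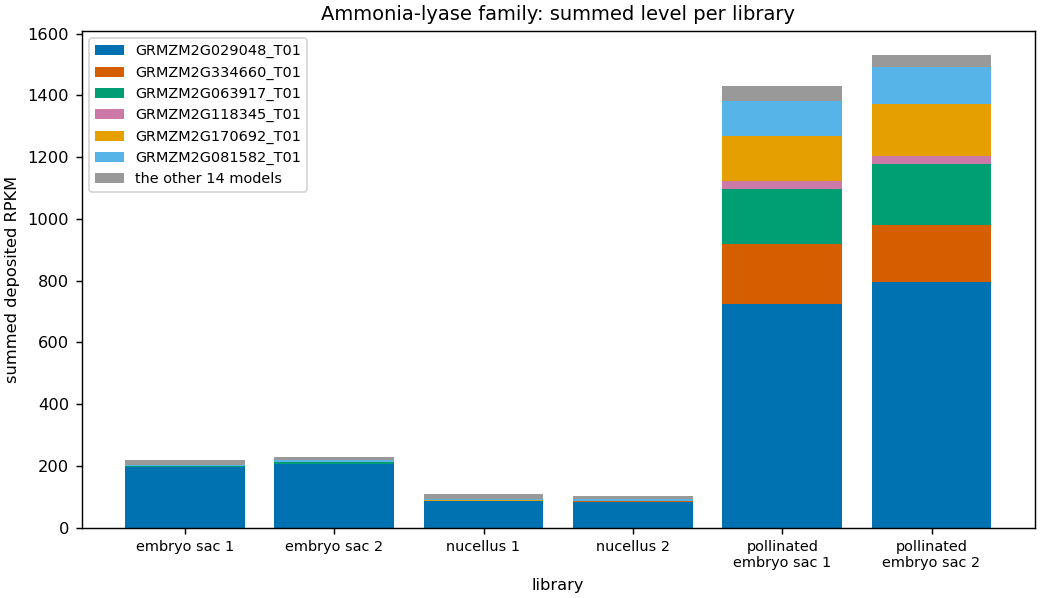
Summed deposited RPKM of the 20 ammonia-lyase models per library, stacked by model, with all models outside the named 6 in grey. The bars stand at 110 and 104 for nucellus, 219 and 230 for embryo sac, and 1430 and 1532 after pollination, where GRMZM2G029048_T01 makes up 50.7% and 51.9%.

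How much of each model the reads covered bears on how its level can be read. GRMZM2G029048_T01 (2610 bases) was covered over 73.1% to 78.0% of its length in every library. GRMZM2G063917_T01 (2987 bases) was covered over 3.28% to 36.0% in the unpollinated tissues and over 76.0% and 77.1% after pollination. GRMZM2G118345_T01 (2934 bases) reached 80.8% and 78.9%, and GRMZM2G170692_T01 (2577 bases) 82.4% and 82.7%. GRMZM2G334660_T01 (2702 bases) reached 60.7% and 58.7% with 1329 and 1344 reads.

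GRMZM2G081582_T01 was covered far less than these models at a like number of reads. Of its 2681 bases, 21.9% was covered in both pollinated libraries although 785 and 865 reads fell on it. In nucellus, 57 reads of replicate 2 already covered 21.6%. More reads thus added almost no covered length. Its RPKM, which divides by the whole length, was 115 and 120 after pollination, and it was 526 and 551 per kilobase covered. Some of the low models were covered over less still, with 5.03% and 6.79% after pollination for GRMZM2G074604_T01, 6.68% and 5.49% for GRMZM2G160541_T02, and 13.0% and 11.2% for GRMZM2G023794_T02. Only reads that map to 1 place were counted, so stretches shared by near-identical copies draw none. Of the 20 models, 6 share the best protein match LOC100381820, GRMZM2G334660_T01 and GRMZM2G170692_T01 among them. Whether reads of shared stretches are missing from their levels was not tested. The strand of the reads is not given in the sources used here, so antisense transcripts cannot be told apart.

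**Figure D4:**
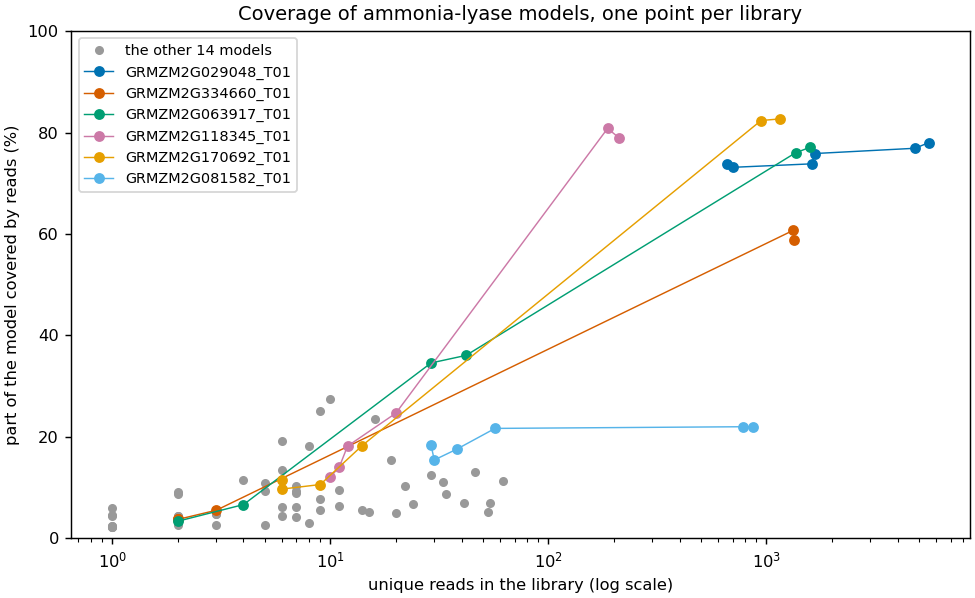
Part of each ammonia-lyase model covered by reads (%) against its unique reads on a log scale, 1 point per library with reads, the 6 most abundant models in colour and all others in grey. GRMZM2G081582_T01 stays at 15.4% to 21.9% from 29 to 865 reads, while GRMZM2G029048_T01, GRMZM2G063917_T01, GRMZM2G118345_T01 and GRMZM2G170692_T01 pass 70% in the pollinated libraries.

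In embryo sac against nucellus the members differed among themselves, again as a description. The log2 difference was 1.99 ± 0.11 for GRMZM2G029048_T01 and 4.21 ± 0.42 for GRMZM2G063917_T01, both higher in embryo sac. For GRMZM2G118345_T01 it was 1.10 ± 0.41, but 0.50 without embryo sac replicate 2 and 1.58 without embryo sac replicate 1. GRMZM2G334660_T01 had 4 reads against 5, so no difference was detectable at this depth (0.38 ± 0.88).

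Of the models outside the listed 4, a PAL1 model and a pseudogene were higher in embryo sac than in nucellus. GRMZM2G074604_T01 drew 41 and 20 reads against 8 and 15, which is 2.11 ± 0.37 on the log2 scale after TMM scaling (edgeR adjusted p = 2.79e-07). GRMZM2G160541_T02 drew 13 reads in all against 2, 10.8 times as many after scaling, with counting error spanning 2.45 to 98.6 (edgeR adjusted p = 0.00132). Over the series, 39.4% of tested models were called, 23.2% higher in embryo sac and 16.3% lower, and among the 8 tested family models outside the listed 4, 2 were higher by edgeR and by DESeq2. None was lower by either tool, and 0 at an unadjusted p under 0.05. With library totals in place of TMM the median of all models moved from -0.00 to -0.75 in this comparison, and the log2 difference of GRMZM2G118345_T01 to 0.35. GRMZM2G170692_T01 (edgeR adjusted p = 0.74) and GRMZM2G081582_T01 (edgeR adjusted p = 0.911) did not pass the test between embryo sac and nucellus.

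Pollinated embryo sac against nucellus gave larger differences for the listed models, as a description. These were 4.08 ± 0.12 on the log2 scale for GRMZM2G029048_T01, 5.26 ± 0.25 for GRMZM2G118345_T01, 10.01 ± 0.22 for GRMZM2G063917_T01 and 10.12 ± 0.22 for GRMZM2G334660_T01. The nucellus side rests on 6 reads for GRMZM2G063917_T01 and 5 for GRMZM2G334660_T01, whose counting error the SE does not give. Outside the 4, GRMZM2G170692_T01 was higher by 7.65 ± 0.19 and GRMZM2G081582_T01 by 5.28 ± 0.15 (edgeR adjusted p = 1.5e-75). Of the 8 tested family models outside the listed 4, 7 were called higher and none lower by edgeR or DESeq2, where 55.2% of all tested models were called, 27.2% higher and 28.0% lower. The same 5 models passed the filter only through the pollinated libraries. At an unadjusted p under 0.05, 0 were lower. With total count scaling GRMZM2G139624_T01 was called lower (log2 difference -1.53, edgeR adjusted p = 0.0133). This comparison shares its libraries with the other pair, so it is not a separate line of evidence.

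Several family genes lie next to each other in RefSeq's maize assembly (Zm-B73-REFERENCE-NAM-5.0), of which only gene order was used. GRMZM2G074604 and GRMZM2G029048 are direct neighbours, and 1 annotated gene separates GRMZM2G029048 from GRMZM2G170692. GRMZM2G160541 and GRMZM2G081582 are direct neighbours, with 1 gene between GRMZM2G081582 and GRMZM2G063917. GRMZM2G118345 lies beside GRMZM2G441347. By reads or RPKM some neighbours stood at unlike levels and others at similar ones. GRMZM2G441347_T01 drew 4 and 3 reads after pollination beside 187 and 212 for GRMZM2G118345_T01, and GRMZM2G074604_T01 drew 53 and 54 beside 4808 and 5559 for GRMZM2G029048_T01. GRMZM2G081582_T01 and GRMZM2G063917_T01 stood at 118 and 189 RPKM after pollination, with fitted changes of 37.7-fold and 55.9-fold. Per kilobase covered the order was the reverse, with 526 and 551 for GRMZM2G081582_T01 and 236 and 256 for GRMZM2G063917_T01. Reads covered only 5.03% and 6.79% of GRMZM2G074604_T01 after pollination. How far uneven coverage shapes these comparisons was not tested.

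Enzymes that make the substrate of phenylalanine ammonia-lyase were examined next. Phenylalanine comes from the shikimate pathway, which starts with DAHP synthase (phospho-2-dehydro-3-deoxyheptonate aldolase), and hydro-lyases that act on prephenate or arogenate stand at its end. Of 12 models described as enzymes of the pathway, 9 were tested, 4 rose after pollination, 1 fell and 4 were not called. Over all tested models 13.0% were higher and 19.3% lower, and DESeq2 called 3 of the list higher and 0 lower. The 3 tested DAHP synthase models were among the risers. GRMZM2G117707_T02 drew 1051 and 958 reads in nucellus, 317 and 273 in embryo sac, and 530 and 616 after pollination (log2 change 1.40 ± 0.12, edgeR adjusted p = 1.56e-21). Against nucellus the direction depended on the scale: its RPKM was 117 ± 12.8 in nucellus and 78.9 ± 5.40 after pollination, while TMM-scaled CPM were 220 ± 23.3 and 283 ± 22.9. GRMZM2G178826_T05, described as 3-dehydroquinate synthase, fell from 5 and 1 reads to 0 and 0 (edgeR adjusted p = 0.0419, not called by DESeq2), too few reads for a fold. The list's median log2 change was 0.30, against -0.08 for all tested models.

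Hydro-lyases that carry the L-phenylalanine process form a list of 11 models, added after the tables were read. Of its 5 tested models 2 rose, 1 fell and 2 were not called, where 13.0% of all tested models were higher and 19.3% lower. The list's median log2 change was 0.15. GRMZM2G437912_T01 drew 434 and 507 reads in nucellus, 261 and 252 in embryo sac, and 1890 and 2205 after pollination, a 10.8-fold rise (edgeR adjusted p = 2.26e-62). GRMZM2G125923_T01 drew 56 and 69, 14 and 17, and 246 and 244 reads in that order, a 21.3-fold rise (edgeR adjusted p = 1.9e-42). In both models the pollinated libraries were the highest. GRMZM2G141273_T04 fell from 29 and 29 reads to 5 and 6 (edgeR adjusted p = 9.49e-05). GRMZM2G115841_T01, described as P-protein, went from 241 and 250 reads to 129 and 154, a log2 change of -0.36 ± 0.15 that is below the fold threshold.

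Steps after cinnamate were covered unevenly. Only 1 model is described as cinnamate 4-hydroxylase or 4-coumarate-CoA ligase, and it was not tested, with 0 to 1 reads per library. A further 4-coumarate-CoA ligase model, GRMZM2G075333_T01, was found by its RefSeq synonym after the tables were read. It drew 69 and 95 reads in nucellus, 221 and 214 in embryo sac, and 235 and 256 after pollination. Its log2 change on pollination was 0.61 ± 0.14 (edgeR adjusted p = 7.72e-05), under the threshold of 1.

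Models of the lignin branch were few and mostly low. Of 18 models 6 were tested, 1 was called higher, 3 fell and 2 were not called, where 13.0% of all tested models were higher and 19.3% lower. DESeq2 called 1 higher and 2 lower. Their summed RPKM was 46.2 and 50.1 in embryo sac and 19.4 and 23.8 after pollination. GRMZM2G127948_T01, a caffeoyl-CoA 3-O-methyltransferase, an enzyme of monolignol methylation, went from 7 and 6 reads to 19 and 20 (4.01-fold), and it passed the filter only through the pollinated libraries. GRMZM2G017557_T01, an O-methyltransferase described as ZRP4, fell from 97 and 81 reads to 0 and 3 (edgeR adjusted p = 8.98e-20). Its RPKM went from 21.8 and 19.6 to 0 and 0.819, which makes up most of the fall in the list's sum. The description of this model names no step of lignin synthesis, so the sum does not show a fall of the branch. In a wider list of 45 models with a phenylpropanoid or lignin GO process, added after the tables were read, 20 were tested, 6 were called higher, 1 lower and 13 not. Over all tested models 32.3% were called, 13.0% higher and 19.3% lower. DESeq2 called 6 models of this list higher and 0 lower. Its risers include GRMZM2G168364_T01, with 437 and 422 reads in embryo sac and 953 and 963 after pollination (3.02-fold, edgeR adjusted p = 2.74e-28). This model passes the filter without the pollinated libraries. GRMZM2G320786_T01 and GRMZM2G336337_T01 were also called higher, but they passed the filter only through the pollinated libraries.

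Flavonoid enzymes, which build on the products of the ammonia-lyases, were split between models called higher and models not called. Of 37 models 16 were tested, 7 were called higher, 1 fell and 8 were not called, where 13.0% of all tested models were higher and 19.3% lower. DESeq2 called 5 higher and 1 lower, and 5 of the 16 passed the filter only through the pollinated libraries. Their summed RPKM was 84.8 and 111 in nucellus, 130 and 110 in embryo sac, and 767 and 861 after pollination. GRMZM2G125482_T01, described as flavonoid 3-monooxygenase, drew 2 and 2 reads in nucellus, 8 and 3 in embryo sac, and 2369 and 2990 after pollination, and passed the filter only through those libraries. This model makes up most of the list's sum after pollination. GRMZM2G063550_T01, an anthocyanidin glucosyltransferase, fell from 3 and 10 reads to 0 and 0 (edgeR adjusted p = 0.0024). The list's median log2 change was 0.64.

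**Figure D5:**
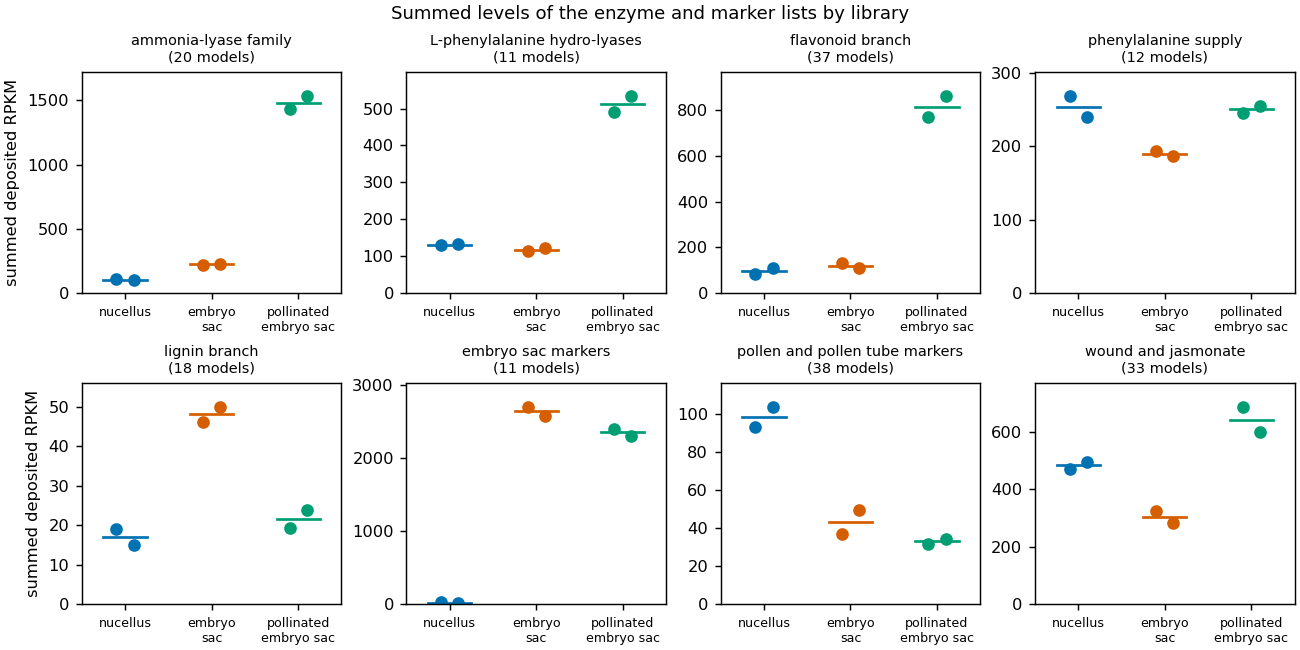
Summed deposited RPKM of 8 lists of models by tissue, 1 point per library and a line at the mean of 2 libraries, each panel with its own axis from 0. The ammonia-lyase, hydro-lyase, flavonoid, and wound and jasmonate sums are highest in both pollinated libraries. The pollen marker sum is lowest there on this scale, at 31.8 and 34.4, and highest in nucellus.

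Markers of other cells and of stress moved with the tissues to different degrees. Of 38 models described as pollen or pollen tube proteins, 5 were tested and none was called between pollinated and unpollinated embryo sac by edgeR or by DESeq2. At an unadjusted p under 0.05 edgeR gave 0 higher and 1 lower. Their summed RPKM was 93.4 and 104 in nucellus, 36.9 and 49.4 in embryo sac, and 31.8 and 34.4 after pollination. On TMM-scaled CPM the sums of embryo sac (41.09 and 51.25) and pollinated embryo sac (37.75 and 46.13) overlapped. On both scales the sum was highest in nucellus, so it cannot show whether pollen RNA was present. Of 33 wound and jasmonate models 18 were tested, 8 rose, 1 fell and 9 were not called by edgeR, with the same counts higher and lower by DESeq2, where 13.0% of all tested models were higher and 19.3% lower. Their summed RPKM was 470 and 496 in nucellus, 325 and 283 in embryo sac, and 688 and 598 after pollination. How many of the 18 passed the filter only through the pollinated libraries was not counted. On pollination the sum of this list moved in the same direction as that of the ammonia-lyases, and its part in their rise was not tested.

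The models whose profile over the 6 libraries lay nearest to the mean of the 4 were taken from 2823 models with an informative description and at least 10 CPM in 1 library. Distance was Euclidean on centred log2(CPM + 1) values. The nearest were GRMZM2G032856_T01 (glutathione transferase24, distance 0.802), GRMZM2G135385_T01 (cytochrome b5, 1.40), GRMZM2G365188_T01 (a SAUR family member, 1.53), GRMZM2G447795_T01 (xylanase inhibitor protein 1 precursor, 1.59) and GRMZM2G160710_T01 (ATFP4, 1.63). GRMZM2G032856_T01 drew 1 read in each nucellus library, 8 and 4 in embryo sac, and 267 in each pollinated library. On the same measure the listed models lay 1.84 (GRMZM2G118345_T01), 2.25 (GRMZM2G063917_T01), 3.24 (GRMZM2G029048_T01) and 3.52 (GRMZM2G334660_T01) from their own mean. The 5 were picked as the smallest of 2823 distances. That they lie nearer to this mean than the listed models is therefore largely fixed by the choice.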

How the data were processed

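Each library came as a deposited table with 1 row per transcript model. Its counts are of unique reads, per the file headers, and they sum to the header's total. A model not listed for a library was set to 0. The deposited RPKM are the counts scaled to model length and unique reads, and recomputing them gave a largest relative difference of 1.39e-08. The deposited coverage is the percent of a model's length that reads cover. The sources used here name no aligner, counting tool or genome build.

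Counts of all 6 libraries entered one edgeR 4.0.16 fit in R 4.3.3 (filterByExpr by group, TMM, robust quasi-likelihood), which tested 18844 models with Benjamini-Hochberg adjustment over all of them. A call needed an adjusted p under 0.05 and an absolute log2 change of at least 1. DESeq2 1.42.0, other scalings, no filter, fits of 2 groups, sums per gene, a replicate block and leaving out each library were tried. The scripts were tested on simulated counts. Levels are mean ± SD of 2 libraries and changes are ± SE. This SE is the absolute log2 change divided by the square root of the edgeR quasi-likelihood F. Where a group holds few reads, it can be smaller than the counting error. TMM factors were 1.48 and 1.47 in nucellus, 0.87 and 0.88 before pollination, and 0.78 and 0.77 after it. A floor of 3 reads is 0.638 to 1.51 CPM, and intervals (95%) and floors cover counting error only.

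The members and the lists were chosen with earlier results of these data known. Named models are the listed 4, every other ammonia-lyase model, the most significant called model of each pathway list in either direction, and the 5 nearest profiles. The search terms of the lists were written out from the words fixed for them, and 4 lists were added after the tables were read. Hydro-lyases, the 4-coumarate-CoA ligase found by synonym, GRMZM2G320786_T01 and GRMZM2G336337_T01 are named beyond the rule. The model called lower in the list by phenylpropanoid or lignin GO process is not singled out. Protein descriptions come from the deposited tables, and 19.8% of models have an informative one. Symbols, biotypes and gene order come from the RefSeq table.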

Additional observations from a re-analysis of the deposited data

How the results depend on the processing

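Counts of called phenylalanine ammonia-lyase models include listed models and models that passed the filter only through the pollinated libraries. They describe the family and are no support for a change. Taken by GO text, 12 models were tested. Of these, 11 were called for pollinated against unpollinated embryo sac, 5 for embryo sac against nucellus and 11 for pollinated embryo sac against nucellus. Over all tested models 32.3%, 39.4% and 55.2% were called in that order. With phenylalanine ammonia-lyase models taken by their protein match alone, 2 were called in each comparison. Leaving out each library in turn gave 1 to 2 in the first 2 comparisons, the 1 coming without pollinated replicate 1 in the first and without embryo sac replicate 2 or nucellus replicate 2 in the other. Embryo sac against nucellus also gave 1 with total count scaling, with DESeq2 and with only the 2 groups compared. The log2 ratio of the summed members was 2.71, with 2.53 on total counts and 2.49 on deposited RPKM. Total count scaling also moved the share of calls that are higher from 40.1% to 30.6%, from 58.8% to 28.6% and from 49.3% to 26.0% in the 3 comparisons in that order, with medians of all models at -0.26, -0.75 and -0.99. In total, 116 values of the main results were within the range counted as unchanged and 11 were not. For single models 407 were unchanged, 19 turned sign, 6 lost a call, 1 gained one and 15 listed-model values moved beyond the replicate spread with their sign kept.

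The log2 changes that turned sign belonged to models not called in that comparison. For embryo sac against nucellus, total count scaling gave -0.65 for GRMZM2G061851_T01, -0.71 for GRMZM2G081582_T01 (DESeq2 -0.03, RLE size factors -0.031, no filter -0.037), -0.47 for GRMZM2G153871_T01 and -0.33 for GRMZM2G334660_T01. Leaving out each library in turn gave -0.31 to 0.62 for GRMZM2G061851_T01, -0.18 to 0.32 for GRMZM2G081582_T01, -0.60 to 0.75 for GRMZM2G139624_T01, -0.47 to 1.67 for GRMZM2G153871_T01 and -0.53 to 0.18 for GRMZM2G170692_T01. In the pollinated embryo sac, GRMZM2G139624_T01 ranged from -1.71 to 0.12 against unpollinated libraries and from -1.76 to 0.20 against nucellus. The cause was not tested.

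The labels do not say whether replicate numbers pair the libraries. Deviations of same-numbered libraries correlated at -0.0194, 0.0165 and 0.00359, so no shared shift was seen. This cannot show whether such libraries came from the same plants or day. A fit with the replicate number as a block called 5960 models for pollinated against unpollinated embryo sac, against 6090 without it.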
